A study of Arabidopsis thaliana with 6 samples.

Results

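Leaves of the mlo2 mlo6 mlo12 triple mutant were compared with wild-type (WT) leaves at 5 weeks after sowing, the youngest of the 3 ages in the study. The comparison holds 2 of the 6 arrays, those titled for the triple mutant and for WT at 5 weeks, and describes the mutant minus WT log2 difference of each probe set. The study measured gene expression in mature rosette leaves of Arabidopsis thaliana under normal growth conditions, at 5, 6 and 7 weeks, in the mutant and in WT. Each genotype and age had 1 Affymetrix array. By its title, the study dealt with antifungal defence in the mlo2 mutant and the part of indolic metabolites in it. The mutant carries mutations in MLO2, MLO6 and MLO12, while both genotypes shared the growth condition, the organ and the age. The labels do not give the alleles, the ecotype, the number of plants in an array or the hour of harvest.

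MLO proteins span the plasma membrane of plant cells, and powdery mildew fungi need them to enter leaf epidermal cells. Plants that lack the family members active in leaves resist the fungus, and in Arabidopsis MLO2 carries most of this role, with MLO6 and MLO12 adding to it. Such mutants are also known for deposits of cell wall material and an early yellowing of leaves as they age. Tryptophan-derived (indolic) glucosinolates and the phytoalexin camalexin are antifungal compounds of the leaf.

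With 1 array on each side, a 5-week difference has no replicate error, and none is given a p-value. Values are log2 expression levels from the RMA method, so a difference of 1 is 2-fold, and a level is set only against another level of the same probe set. In whole leaves, fewer cells of a type and less RNA per cell cannot be told apart. For the 3 targeted genes the annotation lists no probe set of their own, so their levels could not serve as a check of the genotype labels.

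The array medians were 3.87 in the mutant and 3.87 in WT at 5 weeks. The 25S rRNA control probe set read 6.59 in the mutant and 7.51 in WT, whereas at 6 and 7 weeks it was higher in the mutant (5.39 and 5.70) than in WT (4.08 and 3.87). The 5-week pair correlated at 0.9891 across probe sets, the second highest of the 15 pairs of arrays after the mutant arrays of 6 and 7 weeks (0.9892), and it had the fewest probe sets 2-fold apart. The 6-week WT array stood apart from the others, with 2842 probe sets 2-fold apart from WT at 5 weeks. Values at 6 weeks therefore rest on that array, and those at 7 weeks do not use it. Of the mesophyll markers, which define the green tissue of a leaf, RCA, PRK and SBPASE could be measured and differed by -0.01, -0.03 and 0.32 between mutant and WT at 5 weeks.

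At 5 weeks the 2 genotypes were close, and the larger differences lay mostly on the higher side in the mutant. Of 22746 probe sets, 297 (1.31%) were at least 2-fold apart, 199 of them higher in the mutant (0.875%) and 98 lower (0.431%). The corresponding totals were 1122 (4.93%) at 6 weeks and 420 (1.85%) at 7 weeks. Over all probe sets the median difference was -0.018, 46.6% were above 0, and 90.1% lay within 0.5 of 0. The median of the 199 was 1.28 and that of the 98 was -1.16. Differences of at least 2 on the log2 scale were found in 21 probe sets on the higher side and in 2 on the lower side. At the smaller threshold of 1.5-fold the balance turned, with 757 higher and 806 lower. Of the 199, the 5-week mutant array was the highest of all 6 arrays in 129 (64.8%), and the 5-week WT array was the lowest of all 6 in 75 (37.7%). Of the 98, the mutant array was the lowest of 6 in 50 (51.0%) and the WT array the highest in 53 (54.1%). Both sets were chosen on these 2 arrays, which favours such extremes, so these shares do not show that the arrays stand out.

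The share of probe sets 2-fold apart was greatest at middle levels. It was 2.80% where the mean of the 5-week arrays was between 5 and 7, 2.06% between 7 and 9 and 1.13% at 9 or more. Only 1 of 7895 probe sets with a mean under 3 was counted, where RMA compresses values towards the background. Just past the threshold were AT3G13950 (6.42 in the mutant and 5.42 in WT) and AT5G63190 (6.50 in the mutant and 7.50 in WT), and just short of it UGT78D2 (6.05 in the mutant and 5.06 in WT) and AT3G11560 (5.13 in the mutant and 6.12 in WT). Both 5-week arrays were under 5 in 45 of the 297. A single gene was annotated for 124 of the 297, 85 higher and 39 lower (0.928% of the 13356 genes covered). Of the rest, 172 were not listed in the annotation and 1 had several genes.

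**Figure D1:**
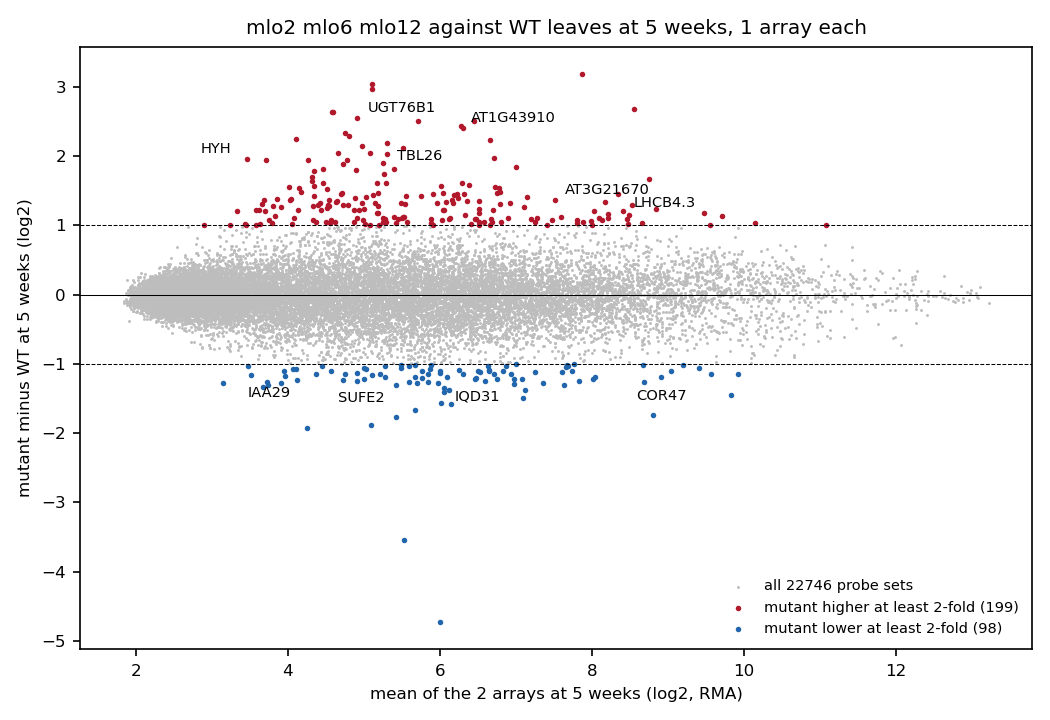
Each point is 1 probe set, with the mean of the 2 arrays at 5 weeks on the x axis and the mutant minus WT difference on the y axis, both on the log2 scale. Red points are the 199 probe sets at least 2-fold higher in the mutant, blue points are the 98 at least 2-fold lower, grey points are the rest, and dashed lines mark differences of 1 and -1.

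The widest differences at 5 weeks belonged to probe sets without a name here. On the higher side, 245035_at read 9.46, 10.40 and 9.68 in the mutant at 5, 6 and 7 weeks, against 6.27, 8.0 and 7.74 in WT, so that all 3 mutant arrays were above all 3 WT arrays. At 5 weeks it was 9.08-fold higher. The next, 245306_at, read 6.63 in the mutant and 3.59 in WT at 5 weeks (8.23-fold), but 3.65 and 3.50 in the mutant against 3.70 and 3.98 in WT at 6 and 7 weeks. On the lower side, 262455_at read 3.65 in the mutant and 8.37 in WT at 5 weeks (26.4-fold lower). Its order turned with age, with 6.96 and 5.71 in the mutant against 4.37 and 7.60 in WT at 6 and 7 weeks. For 247573_at the values were 3.76 in the mutant and 7.30 in WT at 5 weeks (11.7-fold lower).

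Among genes with a name, the widest gap on the higher side was that of UGT76B1. This glucosyltransferase of defence signals attaches glucose to isoleucic acid and to salicylic acid and restrains salicylic acid responses. It read 6.19, 5.74 and 4.78 in the mutant at 5, 6 and 7 weeks, against 3.64, 3.98 and 3.33 in WT. All 3 mutant arrays were above all 3 WT arrays, and the 5-week gap of 2.55 (5.84-fold) exceeded those of 1.76 and 1.46 at the later ages. AT1G43910 showed the same order, with 7.50, 7.72 and 5.85 in the mutant against 5.05, 5.32 and 4.45 in WT (2.44, or 5.42-fold, at 5 weeks). AT3G13610 (F6'H1), the hydroxylase that leads into the coumarin scopoletin, read 7.53, 8.39 and 7.02 in the mutant and 6.05, 6.45 and 5.45 in WT. Its gap was 1.48 at 5 weeks (2.80-fold) and 1.94 and 1.56 afterwards.

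SBT3.3, a secreted subtilisin-like protease linked to the priming of immunity, read 5.70, 6.93 and 6.51 in the mutant against 4.69, 5.46 and 5.48 in WT. In this gene the mutant at 5 weeks was above WT of every age. AT5G39670 and AT3G48640 were also more than 2-fold higher at every age, with 5-week differences of 1.06 and 1.34. These 6 are all the named genes at least 2-fold higher in the mutant at each of the 3 ages, and no named gene was at least 2-fold lower at each of them. SBT3.5, another subtilase, fell short of the threshold only at 5 weeks, with differences of 0.90, 1.34 and 1.30.

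Members of the salicylic acid list were among the wider differences on the higher side, although the list is small. Of its 6 measured members, 4 were above 0 and 3 were at least 2-fold higher, against 46.8% above 0 and 0.636% at least 2-fold higher over all 13356 named genes (0.292% lower). The 3 were UGT76B1, SBT3.3 and GRX480, a glutaredoxin induced by salicylic acid that binds TGA transcription factors. GRX480 read 5.46, 6.00 and 7.42 in the mutant against 4.36, 6.54 and 6.46 in WT, so its order turned at 6 weeks. The other 3 members lay between -0.48 (SAG101) and 0.03 (UGT74F1), and the list median was 0.52. Like the other lists, this one was chosen with earlier results of these data known, so the shares only describe its members. None of the 7 measured members of pattern-triggered immunity was 2-fold apart, against 0.928% of all named genes. At that share so short a list would seldom hold any. Only 2 of the 7 had a mean of 5 or more over the 6 arrays. The receptor EFR differed by 0.18 at 5 weeks and by 0.37 and 0.64 later, and the receptor-associated kinase BIK1 by 0.15, then 0.43 and 0.51.

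The measured genes of the defensin and pathogenesis-related list were defensins, thionins and the osmotin OSM34. They do not stand for pathogenesis-related genes at large. These genes were near WT at 5 weeks, but only 5 of the 13 had a mean of 5 or more over the 6 arrays. The others lay near the background at 5 weeks, where RMA compresses values. None of the 13 measured was 2-fold apart, against 0.928% of all named genes, and 3 were above 0, against 46.8%. The median was -0.19. PDF1.2, a defensin induced by jasmonate and ethylene whose near-identical copies may share its probe set, read 7.49 in the mutant and 7.67 in WT at 5 weeks. Its later pairs were far apart and opposite in sign, with 8.25 and 9.01 in the mutant against 10.76 and 8.05 in WT. The widest 5-week difference of the list was -0.65, in LCR69. Of 4 jasmonate genes, the transcription factor MYC4 differed by 0.90, and the other 3 lay between -0.40 and -0.15.

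**Figure D2:**
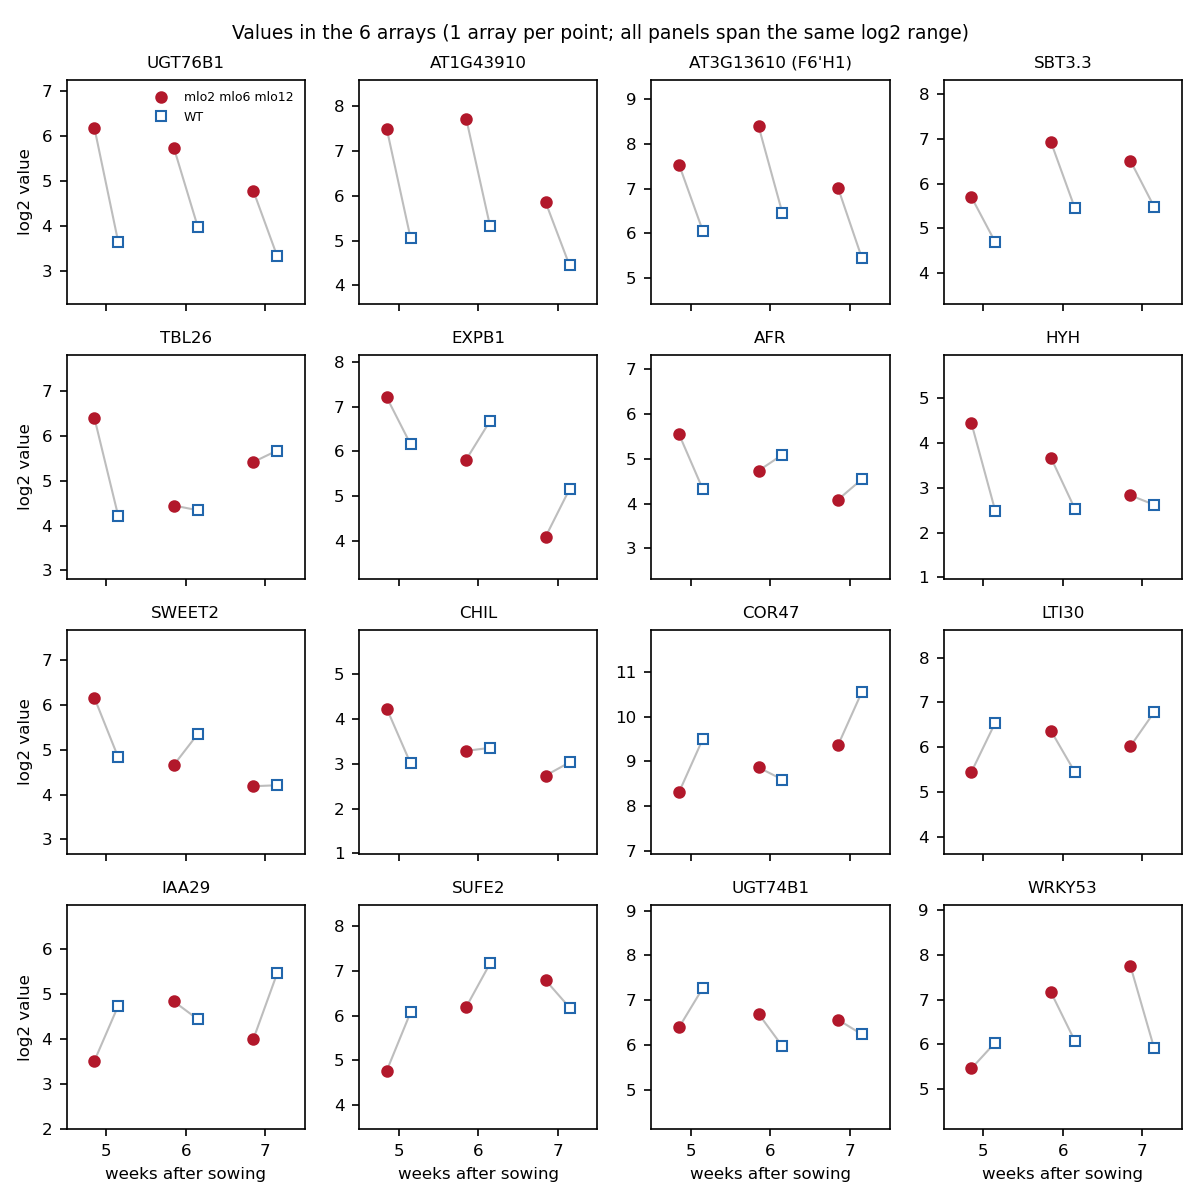
The log2 value of 16 named genes in each of the 6 arrays is plotted by weeks after sowing, with the mutant as filled red circles on the left of each pair and WT as open blue squares on the right; each point is 1 array. In UGT76B1, AT1G43910, AT3G13610 and SBT3.3 the mutant was higher at every age, in EXPB1 and AFR it was higher at 5 weeks and lower at 6 and 7 weeks, and in UGT74B1 and WRKY53 lower at 5 weeks and higher at 6 and 7 weeks.

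Cell wall genes supplied several of the wider differences on the higher side. Of 78 measured, 46 were above 0 (59.0%), against 46.8% of all named genes, and 4 were at least 2-fold higher, against 0.636%. None was 2-fold lower, against 0.292%, and the median was 0.058. TBL26, of a family whose members acetylate wall polysaccharides, read 6.40, 4.45 and 5.42 in the mutant against 4.21, 4.34 and 5.67 in WT. Its difference was thus 2.19 at 5 weeks (4.56-fold), 0.11 at 6 weeks and -0.26 at 7 weeks. EXPB1, a beta-expansin that loosens walls, read 7.21, 5.82 and 4.10 in the mutant against 6.16, 6.68 and 5.16 in WT, so that the mutant was higher at 5 weeks and lower at both later ages. XTH32, which cuts and rejoins xyloglucan, differed by 1.12 at 5 weeks and by -0.72 and 0.03 later. EXLA1, an expansin-like gene, differed by 1.03, 0.09 and 0.81. EXPA8 had the lowest value of the list at -0.67 and was also lower at 6 and 7 weeks (-0.78 and -1.06).

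Transporters, mostly of the sugar and NPF families, had 21 of 33 above 0 at 5 weeks (63.6%), against 46.8% of all named genes. At least 2-fold higher were 2 of the 33, against 0.636%, and none was 2-fold lower, against 0.292%. SWEET2, a sugar transporter of the vacuole, read 6.16, 4.66 and 4.19 in the mutant against 4.83, 5.35 and 4.21 in WT. AT3G21670 (NPF6.4), a nitrate transporter, read 8.19, 6.97 and 5.36 in the mutant against 6.83, 6.22 and 6.39 in WT. Both were above WT at 5 weeks and below it at 7 weeks, by 0.02 for SWEET2. TMT1, which loads sugars into the vacuole, had the lowest value of the list at -0.78. The list's median was 0.12 at 5 weeks, against -0.11 at 6 weeks and -0.0054 at 7 weeks.

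Some genes of light signalling and flavonoid synthesis were also higher in the mutant at 5 weeks. HYH, the homologue of the light-response regulator HY5, read 4.44, 3.67 and 2.83 in the mutant against 2.48, 2.54 and 2.62 in WT, and its gap of 1.96 at 5 weeks (3.88-fold) was 1.14 at 6 weeks and 0.21 at 7 weeks. AFR, an F-box protein of the far-red light response, read 5.55, 4.74 and 4.09 in the mutant against 4.32, 5.09 and 4.54 in WT. CHIL, a chalcone isomerase-like protein that aids flavonoid synthesis, read 4.23 in the mutant and 3.01 in WT at 5 weeks, and differed by -0.07 and -0.29 later. Of the 8 flavonoid genes, 4 were above 0, against 46.8% of all named genes, and only CHIL passed 2-fold. The flavonol glycosyltransferases UGT78D2 and UGT78D1 stood under the threshold at 0.996 and 0.90, while the other 5 lay between -0.20 (UF3GT) and 0.05 (UGT78D3), among them DFR, dihydroflavonol reductase, at -0.16. The median of the list was -0.029, but only 2 of the 8 had a mean of 5 or more over the 6 arrays. At 5 weeks DFR read 3.10 in the mutant and 3.26 in WT, and UF3GT 3.05 and 3.25. These levels are near the background, where RMA compresses values.

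The phenylpropanoid and coumarin list was divided, with 11 of 24 above 0 (45.8%), against 46.8% of all named genes, and a median of -0.020. At least 2-fold higher were 2 of the 24, against 0.636%. Besides F6'H1, the beta-glucosidase BGLU40 was at least 2-fold higher at 5 weeks (6.00 in the mutant and 4.91 in WT). On the other side, BGLU44 differed by -0.87 and UGT72E1, a glycosyltransferase of monolignols, by -0.82. UGT72E1 read 6.18, 6.99 and 6.96 in the mutant against 7.00, 7.89 and 7.88 in WT, a gap of nearly the same size at each age (-0.82, -0.91 and -0.92). In the wider family of UDP-glycosyltransferases, 22 of 51 were above 0 (43.1%), against 46.8% of all named genes. UGT76B1 and GT72B1 (UGT72B1) were the 2 members at least 2-fold higher, against 0.636%.

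Glucosinolate genes, to which the study's title relates, were few on the named part of the array. UGT74B1 adds the glucose in glucosinolate synthesis and was the only member of the indolic and tryptophan list that could be measured. It read 6.39, 6.70 and 6.56 in the mutant against 7.27, 5.97 and 6.24 in WT, so that it was lower at 5 weeks (-0.88) and higher at 6 and 7 weeks (0.72 and 0.32). Of 3 genes of the aliphatic list, AOP1, a dioxygenase of the AOP locus, was higher at 5 weeks (5.23 in the mutant and 3.87 in WT). AOP3 and BCAT4, the aminotransferase of methionine chain elongation, differed by -0.28 and -0.25.

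On the lower side were genes of the cold and dehydration response. Of 9 measured, 2 were above 0, against 46.8% of all named genes, and 2 were at least 2-fold lower, against 0.292%. The median was -0.40. COR47, a dehydrin, read 8.32, 8.87 and 9.36 in the mutant against 9.51, 8.60 and 10.55 in WT. LTI30, another dehydrin, read 5.45, 6.37 and 6.02 in the mutant against 6.55, 5.45 and 6.78 in WT. Both were lower in the mutant at 5 and at 7 weeks and higher at 6 weeks, where the WT array that stands apart is the comparator. COR15B and COR15A, which protect chloroplast membranes from freezing, differed by -0.67 and -0.40 at 5 weeks. The medians of the list were 0.22 at 6 weeks and -0.65 at 7 weeks.

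The clock and light signalling list had 3 measured genes, 1 above 0 and 2 below. Beside HYH, the clock gene GI read 7.39, 7.75 and 8.09 in the mutant against 8.30, 7.59 and 8.70 in WT, and COR27, a cold-induced clock gene, read 4.49, 5.59 and 8.92 in the mutant against 5.23, 7.35 and 9.71 in WT. TIC, a clock regulator outside the list, differed by -0.90, 0.32 and -0.68. These genes and the cold genes cycle over the day, and a difference in the hour of harvest was not tested. IAA29, an auxin-induced repressor of auxin signalling, read 3.51, 4.84 and 4.0 in the mutant against 4.74, 4.44 and 5.47 in WT. It was the only one of 25 genes of growth hormones past 2-fold, against 0.928% of all named genes. Of the 25, 14 were above 0 (56%), against 46.8%.

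Other genes at least 2-fold lower at 5 weeks had later differences of either sign. SUFE2, an activator of the sulphur transfer that builds iron-sulphur clusters, read 4.77, 6.19 and 6.79 in the mutant against 6.07, 7.16 and 6.18 in WT. IQD31, a calmodulin-binding protein, read 5.39 in the mutant and 6.73 in WT at 5 weeks and differed by 0.61 and -0.12 later. PDC2, a pyruvate decarboxylase of fermentation, read 8.50 in the mutant and 9.60 in WT and differed by 0.36 and -0.25 later. The lowest values among genes known by locus were those of AT4G16260 (-1.67) and AT2G05540 (-1.56). EIN3, the transcription factor of ethylene signalling, reached -0.86 and did not pass 2-fold.

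Most of the few senescence genes measured were lower in the mutant at 5 weeks and higher at the later ages. Of 5 measured, 1 was above 0 at 5 weeks (20%), against 46.8% of all named genes. At 6 weeks 4 were above 0 and at 7 weeks 5, against 46.8% and 46% of all probe sets. The medians were -0.48, 0.68 and 0.59 at 5, 6 and 7 weeks. Only 2 of the 5 had a mean of 5 or more over the 6 arrays. WRKY53, a regulator of the onset of senescence, read 5.46, 7.17 and 7.76 in the mutant against 6.04, 6.08 and 5.91 in WT. The mutant array of 5 weeks was thus the lowest of the 6, and those of 6 and 7 weeks were the highest. WRKY6 differed by -0.37, 0.90 and 0.64, SAG101 by -0.48, 0.65 and 0.59, and YLS5 by -0.51, 0.68 and 0.38. None of these was 2-fold apart at 5 weeks. In a limma test of the 5-week difference against the mean of the later ones, these 4 genes had estimates between -2.04 ± 0.43 (WRKY53) and -1.04 ± 0.29 (YLS5, SE), all with adjusted p = 0.999.

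Autophagy genes also lay mostly below 0 at 5 weeks, by small amounts. Of 11 measured, 1 was above 0 (ATG8B, 0.23), against 46.8% of all named genes. The lowest was ATG3 at -0.43, and the median was -0.22, against -0.09 and 0.23 at 6 and 7 weeks. In the WRKY family 3 of 7 were above 0 (42.9%), with a median of -0.18.

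**Figure D3:**
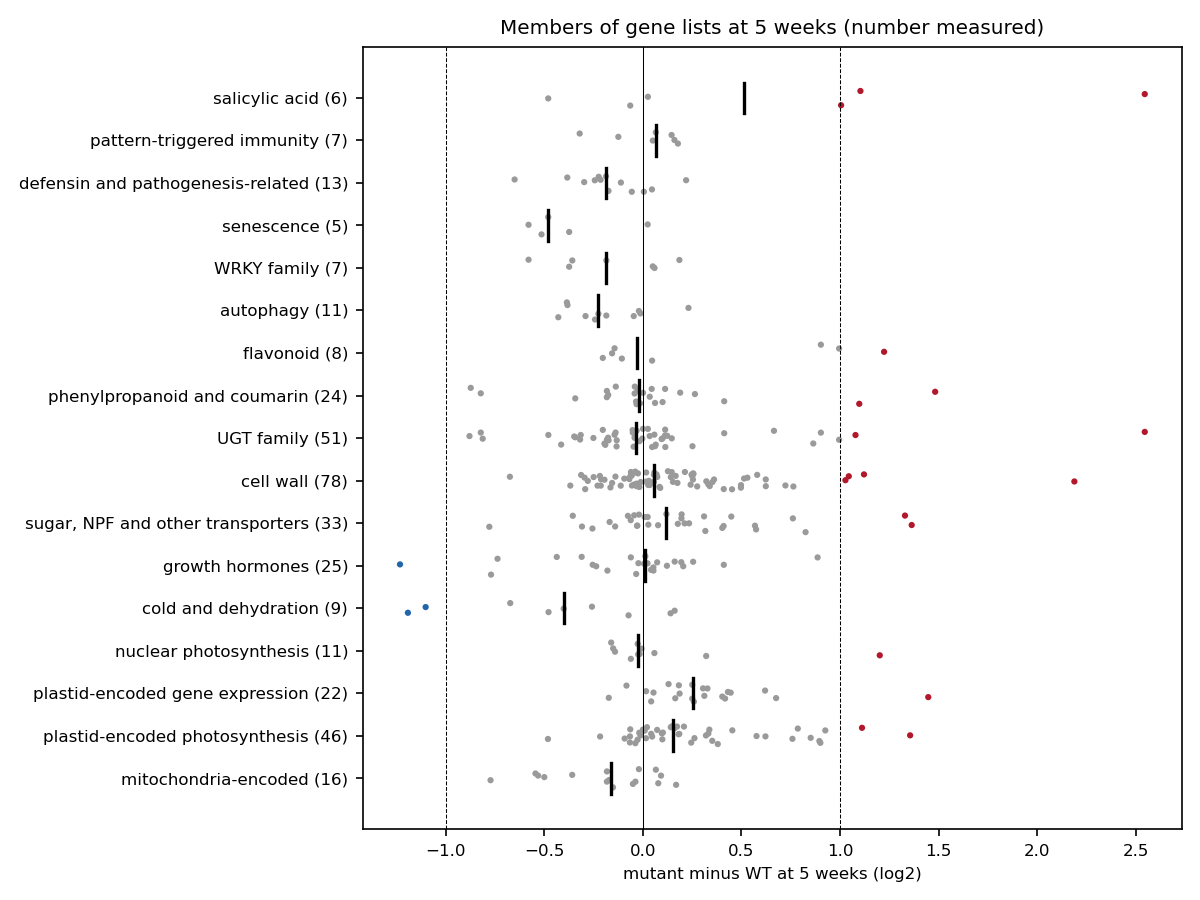
Each point is 1 gene, placed by its mutant minus WT log2 difference at 5 weeks, in each of the gene lists named on the left with the number of measured members in parentheses. Black bars are medians, red points are at least 2-fold higher in the mutant, blue points at least 2-fold lower, and dashed lines mark 1 and -1. Most lists centred near 0, with the salicylic acid (0.52), senescence (-0.48) and cold (-0.40) lists furthest from it.

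Most measured transcripts of the plastid genome were slightly higher in the mutant at 5 weeks. Most of those of the mitochondrial genome were slightly lower. Of 22 plastid genes of gene expression, mostly of transcription and translation, 20 were above 0 (90.9%), against 46.8% of all named genes, and the median was 0.26. In this list 1 gene was at least 2-fold higher, against 0.636% of all named genes. That gene was rps16, a ribosomal protein of the plastid, with 6.63, 5.14 and 5.29 in the mutant against 5.19, 5.60 and 4.43 in WT. Of 46 plastid genes of photosynthesis, 36 were above 0 (78.3%), with a median of 0.15, and 2 were at least 2-fold higher, against 0.636%. Both members past 2-fold encode subunits of the NDH complex, which carries cyclic electron flow. The first, ndhH, read 7.20, 5.35 and 4.91 in the mutant against 5.84, 4.44 and 4.93 in WT. The other, ndhE, differed by 1.11, 0.39 and 0.40. Photosystem II genes psbB and psbD were both at 0.90, while psaA of photosystem I had the lowest value at -0.48.

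Among the 16 mitochondrial genes 4 were above 0 (25%), against 46.8% of all named genes. The median difference was -0.16, from nad5 of complex I at -0.77 to nad7 at 0.17. Only 2 of the 16 had a mean of 5 or more over the 6 arrays. The median level of the list at 5 weeks was 3.47 in the mutant and 3.74 in WT, towards the background where RMA compresses values. The probe set of nad5 is one that the array's naming marks as shared with other transcripts. Organelle transcripts and rRNA lack the long poly-A tail that the labelling of mRNA uses. The 25S rRNA control was lower in the mutant at 5 weeks (6.59, against 7.51 in WT), where most plastid genes were higher. At 6 and 7 weeks the control was higher in the mutant (5.39 and 5.70) than in WT (4.08 and 3.87). The medians of the plastid gene expression list were then 0.075 and 0.52, and those of the plastid photosynthesis list 0.40 and 0.050. The part of RNA quality or labelling in these shifts was not tested. Nuclear genes of photosynthesis were near 0, with a median of -0.023 in 11 genes. The exception was LHCB4.3, an antenna protein of photosystem II, which read 9.01, 8.34 and 8.30 in the mutant against 7.81, 8.86 and 7.48 in WT.

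Glutathione transferases lay slightly above 0 in 11 of 14, from -0.13 to 0.35, against 46.8% of all named genes above 0. Only 5 of the 14 had a mean of 5 or more over the 6 arrays. Cytochrome P450 genes were above 0 in 5 of 23, down to -0.77 in CYP71B22, and 6 of the 23 had such a mean. The reference genes differed by -0.51 to 0.29, with a median of -0.021. Markers of other cell types gave no difference past 2-fold, and each list was small. Guard cell genes FMA, MUTE and SPCH were at -0.12, 0.06 and 0.02, the trichome gene TRY at 0.56, the root gene EXPA7 at 0.02, and the dividing-cell genes AUR1 and AUR2 at -0.10 and 0.01. None of these had a mean of 5 or more over the 6 arrays. MUTE, SPCH, AUR1 and AUR2 read under 3 in both 5-week arrays, a level where only 1 of 7895 probe sets was counted. Markers of flowers, vascular tissue and seeds had 0 measured members.

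The 5-week differences were then followed to 6 and 7 weeks, in arrays that had no part in choosing them. Of the 199 probe sets higher at 5 weeks, 107 were above 0 at 6 weeks (53.8%), against 46.8% of all probe sets, and 150 at 7 weeks (75.4%), against 46%. Of the 98 lower ones, 42 were below 0 at 6 weeks (42.9%), against 53.1% of all, and 70 at 7 weeks (71.4%), against 53.9%. The direction at 5 weeks thus recurred more often than the background at 7 weeks on both sides. At 6 weeks the order depended on the scaling: under a second quantile normalization the higher set had 48.5% above 0, against 50% of all probe sets, and the lower set 48.0% below 0, against 49.9%. Under the same normalization the shares at 7 weeks were 74.0% and 73.5%, against 47.9% and 52.0%. The median of the 199 was 0.045 at 6 weeks and 0.41 at 7 weeks, and that of the 98 was 0.12 and -0.30. At least 2-fold higher at 6 weeks were 32 of the 199 (16.1%), against 2.96% of all probe sets, and at 7 weeks 43 (21.6%), against 1.43%. At least 2-fold lower at 6 weeks were 9 of the 98 (9.18%), against 1.97%, and at 7 weeks 13 (13.3%), against 0.418%. Differences of 2-fold in the opposite direction also occurred. Of the 199, 14 were at least 2-fold lower at 6 weeks (7.04%), against 1.97% of all probe sets, and 2 at 7 weeks (1.01%), against 0.418%. Of the 98, 3 were at least 2-fold higher at 6 weeks (3.06%), against 2.96%, and 5 at 7 weeks (5.10%), against 1.43%. The same sign at both later ages was found in 86 of the 199 (43.2%), against 23.5%, and in 25 of the 98 (25.5%), against 30.6%. At least 2-fold higher at both later ages were 16 of the 199 (8.04%), against 0.264% of all probe sets, and at least 2-fold lower at both were 0 of the 98, against 0.0352%. The shares over all probe sets were not matched for level. At 5 weeks, only 1 of 7895 probe sets with a mean under 3 was 2-fold apart. The part of level in the excess of 2-fold differences over these shares was not tested. Below 0 at both later ages were 28 of the 199, against 30.6% of all probe sets. Above 0 at both were 11 of the 98, against 23.5%. The difference was wider at 5 weeks than at either later age in 161 of the 199 and 88 of the 98, as a choice made at 5 weeks favours.

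**Figure D4:**
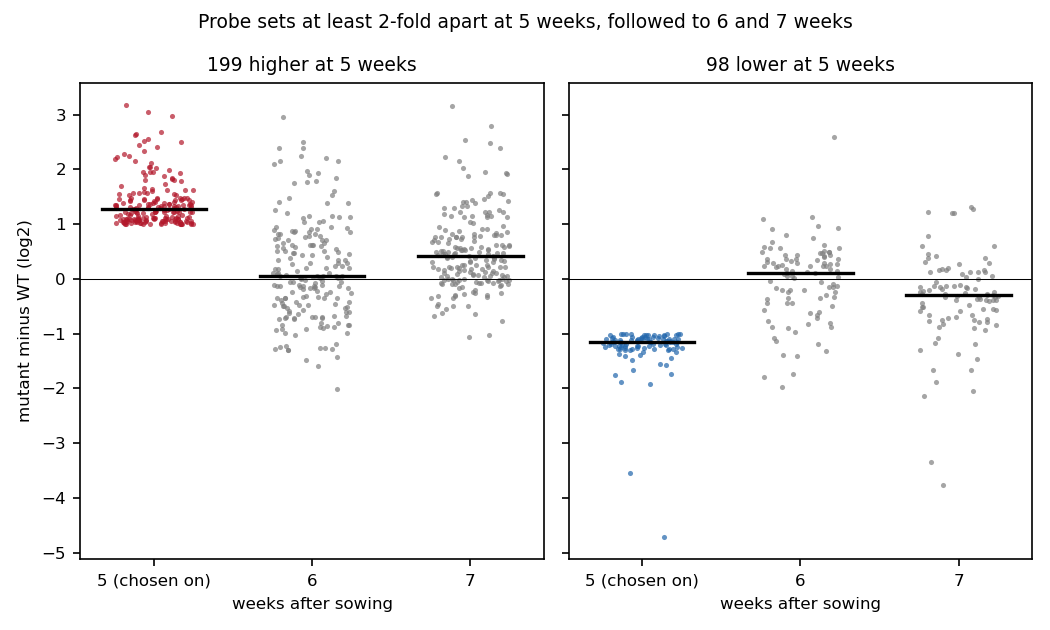
Each point is a probe set that was at least 2-fold higher (left panel, 199) or lower (right panel, 98) in the mutant at 5 weeks, with its mutant minus WT log2 difference at 5, 6 and 7 weeks; black bars are medians. At 5 weeks the points are apart from 0 by choice, while at 6 weeks the medians were 0.045 and 0.12 and at 7 weeks 0.41 and -0.30.

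Whether a difference was particular to 5 weeks was tested as the 5-week difference minus the mean of the 6- and 7-week differences, in a limma model of all 6 arrays with 1 residual degree of freedom. No probe set passed an adjusted p of 0.05 (Benjamini-Hochberg over 22746), and 684 had an unadjusted p under 0.05, of which 286 were higher (1.26%) and 398 lower (1.75%); 1137 would be expected by chance. Removing dim probe sets or modelling the trend of the variance with level gave 3 calls each, of 6 different unnamed probe sets. In simulated data the test called 0 of 50 differences of 1, 14 of 50 of size 2 and 50 of 50 of size 4. The simulated noise was normal and independent between arrays, and 1114 of 22546 unchanged probe sets had an unadjusted p under 0.05. These rates therefore may not hold for the real arrays. The named gene of smallest p on the higher side was TBL26, with an estimate of 2.27 ± 0.31 (SE). EXPB1 had 2.0 ± 0.27, AT5G22390 2.22 ± 0.33 and AFR 1.64 ± 0.26. On the lower side AT4G39830 had -2.05 ± 0.27 and AT5G18470 -1.86 ± 0.27, both lower at 5 weeks and more than 2-fold higher at 6 and 7 weeks. The adjusted p was 0.999 for each of these, so none of the genes described can be called particular to 5 weeks.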

How the data were processed

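The 6 Affymetrix arrays were deposited as log2 values, and the submitters' processing notes name RMA as the method, with no version. RMA subtracts background, equalizes the quantiles of the arrays and summarizes each probe set in 1 value. RMA makes array distributions alike, so a change in total mRNA cannot be seen. The scale was taken from the range of the values, and array medians were 3.80 to 3.87. Precision is limited by how few arrays there are. The labels do not say that arrays came from separate cultures.

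Of 22810 probe sets, 64 controls were set aside. The platform annotation gave 1 gene to 13513 probe sets (59.4%) and several to 503, and it did not list 8730. A RefSeq table of TAIR10.1 held 13436 of the 13513. For 11799 genes the symbol is only a locus identifier. No genome build is named in the files, so no coordinates are given. For lists, 1 probe set per gene was used (highest mean over 6 arrays).

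At 5 weeks, probe sets with a log2 difference of 1 or more in size were counted, without a test. The test across ages used limma 3.58.1 in R 4.3.3, with age as a factor, genotype and genotype at 5 weeks, eBayes, and Benjamini-Hochberg adjustment at 0.05. It was tested on simulated data, where 8 of 22546 unchanged probe sets were called. Genes were named by rule: the 15 widest differences in each direction, those past 1 at all ages, those of opposite sign later, the 5 of smallest p in each direction, up to 5 of each list, all clock and defensin genes, and 2 unnamed probe sets in each direction. The 20 widest with a symbol other than a locus identifier were added after values were seen. So were the genes described beyond the 5 widest of their list. The comparison and the 45 lists were chosen with earlier results of these data known; 6 lists had 0 measured genes, among them the MLO family. Lists were matched by symbol, and 8 matches that belong to another kind of gene were removed after values were seen. One list is not reported here. Alternatives were other fold thresholds, a filter on levels under 5, other normalizations, limma-trend and age as a number.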

Additional observations from a re-analysis of the deposited data

How the results depend on the processing

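The 5-week counts depended most on the threshold and the features counted. The total of 297 was 23 at a log2 difference of 2 (21 higher, 2 lower), 1563 at 1.5-fold (757 and 806), 185 without probe sets whose mean was under 5 (112 of them higher), and 124 with 1 probe set per gene (85 and 39). Of the 21 probe sets higher by at least 2, 71.4% kept their sign at 6 weeks and 57.1% at 7 weeks. Over all probe sets 46.8% and 46% were above 0. This order of the ages was the reverse of that from differences of at least 1 (53.8% and 75.4%). Of the 2 probe sets lower by at least 2, 100% were below 0 at 7 weeks, against 53.9% of all. At 6 weeks they differed by 2.60 (262455_at) and -1.80 (247573_at). Limma-trend called 3 probe sets in the test across ages (lowest adjusted p = 0.044). Without dim probe sets 3 were called, and 246 had an unadjusted p under 0.05; in that fit every probe set had the same standard error of 0.617, so the spread of a single probe set did not enter. One of them, 262455_at (adjusted p = 1.7e-12), differed by 2.60 and -1.89 at 6 and 7 weeks. With age as a number, 0 were called and 233 had an unadjusted p under 0.05. In that model each array was also left out in turn, a choice made after seeing the data: 0 were called each time, while an unadjusted p under 0.05 was found in 53, 99 and 138 without the mutant array of 5, 6 and 7 weeks, and in 3180, 772 and 3907 without the WT array of those ages (lowest adjusted p = 0.222). Without dim probe sets the list medians became -0.57 for cold and dehydration, 0.32 for transporters and 0.31 for cell wall genes; lists left with fewer than 4 members were not recomputed. Shifting the arrays to 1 median, loess and a second quantile normalization moved no list median by over 0.155 where run, and of 200 named genes only UGT78D2 crossed 2-fold (1.03 with loess, 1.05 with quantile normalization and 1.0 with the shift). List medians near 0 could change sign. That of phenylpropanoid and coumarin genes was -0.020, and 0.0048 with loess. That of growth hormone genes was 0.013, and -0.10 without dim probe sets.

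Mutant and WT were matched by age in the test across ages, where age is a factor. No paired analysis was possible because the labels give no replicate numbers to serve as a block beyond age. With age as a factor, leaving out an array leaves no residual degree of freedom; the 7-week values are those without the 6-week WT array.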

Other observations

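ACT11 and CYTC-2, outside the lists, were among the wider 5-week differences with a name. ACT11, an actin known mainly from reproductive tissue, read 4.55, 2.78 and 2.69 in the mutant at 5, 6 and 7 weeks, against 3.17, 2.73 and 2.47 in WT, so the 5-week mutant array stood above the other 5. CYTC-2, a cytochrome c of the mitochondrial electron chain encoded in the nucleus, read 7.55, 7.18 and 6.48 in the mutant against 6.01, 7.00 and 5.81 in WT. Of the 16 mitochondria-encoded genes, 4 were above WT at 5 weeks, against 46.8% of all named genes. Only 2 of these 16 had a mean of 5 or more over the 6 arrays.

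FDH and PWD were lower in the mutant at 5 weeks without reaching 2-fold. FDH, formate dehydrogenase, read 9.64 in the mutant and 10.55 in WT at 5 weeks, and differed by 0.18 and -0.18 later. PWD, a phosphoglucan water dikinase of starch breakdown, read 7.05 in the mutant and 7.97 in WT, and differed by -0.25 and -0.32 later. On the higher side GID1B, a gibberellin receptor, read 4.55, 6.39 and 6.11 in the mutant against 3.67, 5.50 and 5.04 in WT, a gap of 0.89, 0.89 and 1.07.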
